A study of Homo sapiens with 3 samples.

Results

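IGF1, the 3 receptors IGF1R, IGF2R and INSR and the 6 binding proteins IGFBP1 to IGFBP6 were examined by RNA-seq in libraries labelled HepG2, a long-established cell line from a human liver cancer. These 10 genes were chosen for their place in the insulin-like growth factor (IGF) system, by the gene name given in the tables, and each had 1 row among the 39320 rows on the assembled chromosomes and the mitochondrial genome. The 3 libraries carry the label HepG2 with the genotype wild type, and they form 1 condition with no treatment. The labels name no separate cultures, so the SD over the libraries may be technical.

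IGF1 and IGF2 are small secreted hormones related to insulin. They signal through IGF1R, a cell surface tyrosine kinase that is closely related to the insulin receptor INSR, and both receptors act through the PI3K-AKT and RAS-MAPK arms. IGF2R has no kinase and carries IGF2 and mannose 6-phosphate tagged enzymes to lysosomes. The IGFBPs bind IGFs outside the cell with high affinity and set how much of the hormone reaches the receptors, and in the body the liver is the main source of circulating IGF1.

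The tables give each gene in TPM, a unit of RNA level that is scaled for length and to the same total in each library. Counts are not given, so counting errors are left out and the depth is unknown. The top ratio of coverage to FPKM, which orders the libraries by depth, was 13.3, 12.8 and 11.5 in replicates 1, 2 and 3. Of 20 hepatocyte marker genes, 18 were below 1 TPM in every library and 12 were listed at 0 in all 3, among them ALB, APOA1, APOB and SERPINA1, while AFP, a fetal liver protein, was at 0, 0.0239 and 0.0248 TPM in replicates 1, 2 and 3. The summed level of this list lay between 34.0 and 36.1 TPM and came almost wholly from VTN and RBP4. Of 7 mesenchymal genes, 3 (VIM, CDH2 and ZEB1) reached 10 TPM in every library. The summed level of these 7, 706 to 797 TPM, was mostly VIM, while SPARC was listed at 0. By the level that the coverage gives, a measure explained with the receptors, CDH2 and ZEB1 were below 10 TPM. Their means by it were 7.01 ± 0.409 and 1.16 ± 0.0376 TPM, and that of VIM was 607 ± 39.1 TPM (SD, n = 3). Of 5 epithelial genes, KRT8 and KRT18 reached 10 TPM in every library and made up nearly all of the summed level of 4517 to 4772 TPM. KRT19 and EPCAM were below 1 TPM in every library, and CDH1 had 1.04, 0.980 and 1.05 TPM in replicates 1, 2 and 3. In protein-coding gene rows, 10 TPM in every library was reached by 40.4%. Of the same rows, 38.9% were below 1 TPM in every library and 20.0% were listed at 0 in all 3. These hepatocyte marker values go against the label. The values below therefore hold for the libraries labelled HepG2, and the part of this marker pattern in them was not tested.

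Of the 10 genes, 7 had at least 1 TPM in all 3 libraries, against 33.8% of all gene rows and 59.5% of protein-coding gene rows. At least 10 TPM in all 3 was reached by 6 of the 10, INSR being the exception among the 7 by TPM, against 20.7% of all and 40.4% of protein-coding gene rows. The place of INSR depends on the scaling. Its mean of 8.50 TPM became 10.6 TPM when TPM was rescaled without mitochondrially encoded genes. By the level that the coverage gives, a measure explained with the receptors, IGF1R was also below 10 TPM and 5 of the 10 reached it. The share of all gene rows that reach it by that measure was not computed. All 3 receptors and 4 of the 6 binding proteins were among the 7 with at least 1 TPM. IGFBP2, IGFBP5 and the ligand IGF1 were below 1 TPM in every library, as were 63.9% of all and 38.9% of protein-coding gene rows. IGF1 and IGFBP5 were listed at 0 in all 3 libraries, as were 40.7% of all and 20.0% of protein-coding gene rows. The median of the 7 means was 46.3 TPM, which is the value of IGF1R itself. By the level that the coverage gives, IGF1R had a mean of only 6.85 TPM. The median of the 13753 gene rows whose mean was at least 1 TPM, called expressed below, was 15.4 TPM.

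**Figure D1:**
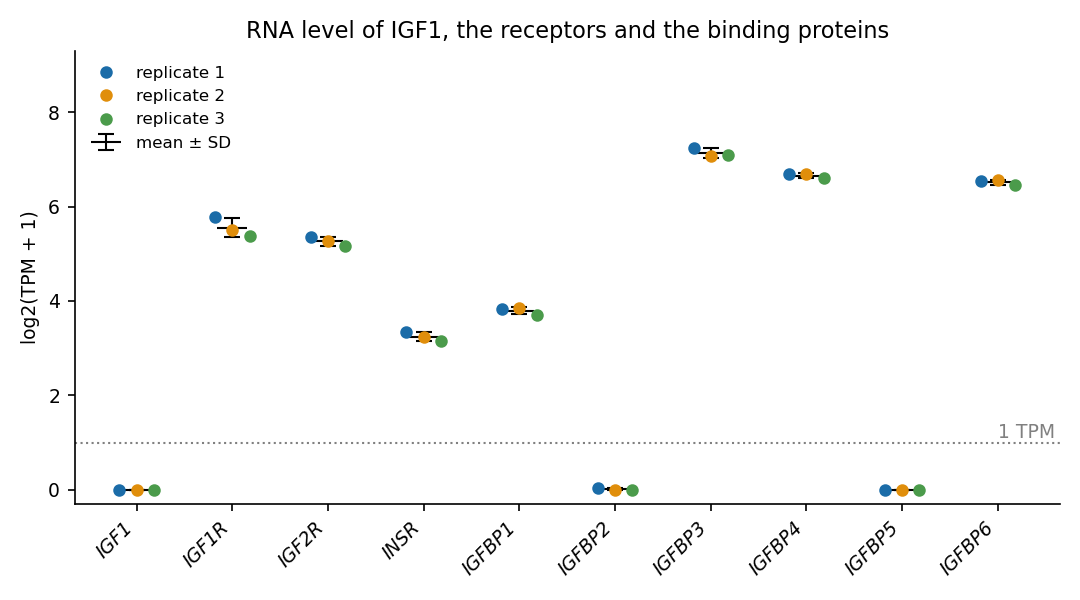
RNA level of each gene as log2(TPM + 1) in replicates 1, 2 and 3 (points) with the mean and SD over the 3 libraries (bars), and a dotted line at 1 TPM. IGFBP3, IGFBP4 and IGFBP6 stand highest, while IGF1, IGFBP2 and IGFBP5 lie at or near 0.

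In GRCh38, IGF1, the ligand, spans 102395860 to 102481839 of chromosome 12 (minus strand). It was listed at 0 TPM in replicates 1, 2 and 3, with 0 coverage in each. At an unknown depth, a value of 0 does not show that the RNA was absent. The related ligand IGF2 was listed at 0.0384 TPM in replicate 1 and at 0 in replicates 2 and 3. INS, the insulin gene, was at 0 in replicates 1 and 2 and at 0.00156 TPM in replicate 3. None of the 3 ligand genes therefore reached 0.1 TPM in any library.

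IGFBP3, the main carrier of IGFs in serum, had the highest level of the 10 genes. It spans 45912245 to 45921272 of chromosome 7 (minus strand). Its level was 150, 133 and 136 TPM in replicates 1, 2 and 3, or 140 ± 9.57 TPM (SD, n = 3). This mean exceeded 92.5% of the gene rows with a mean of at least 1 TPM. The values of replicates 2 and 3 lay close together below that of replicate 1.

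IGFBP4, a binding protein that is cleaved by the protease PAPPA, spans 40443450 to 40457725 of chromosome 17 (plus strand). It had 103, 102 and 95.7 TPM in replicates 1, 2 and 3, a mean of 99.97 ± 3.69 TPM (SD, n = 3). IGFBP6, which binds IGF2 in preference to IGF1, spans 53097667 to 53102340 of chromosome 12 (plus strand). It had 91.7, 93.0 and 86.5 TPM in the same libraries, a mean of 90.4 ± 3.45 TPM (SD, n = 3). IGFBP4 and IGFBP6 exceeded 89.2% and 87.8% of the expressed gene rows, and both were lowest in replicate 3.

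IGFBP1, whose gene is induced by fasting and repressed by insulin in hepatocytes, spans 45888488 to 45893660 of chromosome 7 (plus strand). Its level was 13.3, 13.4 and 12.0 TPM in replicates 1, 2 and 3, or 12.9 ± 0.749 TPM (SD, n = 3). This mean exceeded 45.4% of the expressed gene rows, which places IGFBP1 below their median. IGFBP2, a binding protein that is abundant in fetal tissues, was listed at 0.0283 TPM in replicate 1 and at 0 in replicates 2 and 3. IGFBP5, the binding protein that is abundant in bone, was listed at 0 in all 3 libraries.

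The 4 binding protein genes of 2 chromosomes lie in pairs. IGFBP1 and IGFBP3 point towards each other on chromosome 7 and their rows are 18584 bp apart. IGFBP2 (216632828 to 216664436, plus strand) and IGFBP5 (216672105 to 216695549, minus strand) point towards each other on chromosome 2, 7668 bp apart. No other row lies wholly within either gap. Both genes of the chromosome 7 pair were above 10 TPM in every library, and both genes of the chromosome 2 pair were below 0.1 TPM. Within the chromosome 7 pair, the level of IGFBP3 was higher than that of IGFBP1 in 3 of 3 libraries, and the ranges were far apart.

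Neighbours in the order of binding protein levels were compared within each library by the difference in log2(TPM + 1). IGFBP3 was above IGFBP4 by 0.48 ± 0.09 (SD, n = 3), with differences of 0.55, 0.38 and 0.50 in replicates 1, 2 and 3. IGFBP4 was above IGFBP6 by only 0.14 ± 0.02 (SD, n = 3), but in 3 of 3 libraries, and the lowest IGFBP4 value of 95.7 TPM was still above the highest IGFBP6 value of 93.0 TPM. IGFBP6 was above IGFBP1 by 2.72 ± 0.03 (SD, n = 3). IGFBP1 was above IGFBP2 by 3.78 ± 0.07 (SD, n = 3), a size that depends on the pseudocount because IGFBP2 was listed at 0 in replicates 2 and 3. IGFBP2 and IGFBP5 were not compared, since both were at 0 in those libraries. In an exact two-sided permutation test that flips the signs of the 3 differences, p was 0.25 for each of the 4 pairs and 0.25 after Benjamini-Hochberg adjustment, the lowest value possible with 3 libraries. The order was set from the same values, so the directions are a description.

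The summed TPM of the 6 binding proteins was 358, 341 and 330 in replicates 1, 2 and 3, a mean of 343 ± 14.2 TPM (SD, n = 3). IGFBP3 made up 40.7% ± 1.60 of this sum, IGFBP4 29.2% ± 0.622, IGFBP6 26.4% ± 0.855 and IGFBP1 3.76% ± 0.145 (SD, n = 3). The share of IGFBP3 was lowest in replicate 2, at 38.9%, against 42.0% and 41.1% in replicates 1 and 3. The shares of IGFBP4, IGFBP6 and IGFBP1 were each highest in replicate 2. These are shares of transcripts and not of secreted protein.

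**Figure D2:**
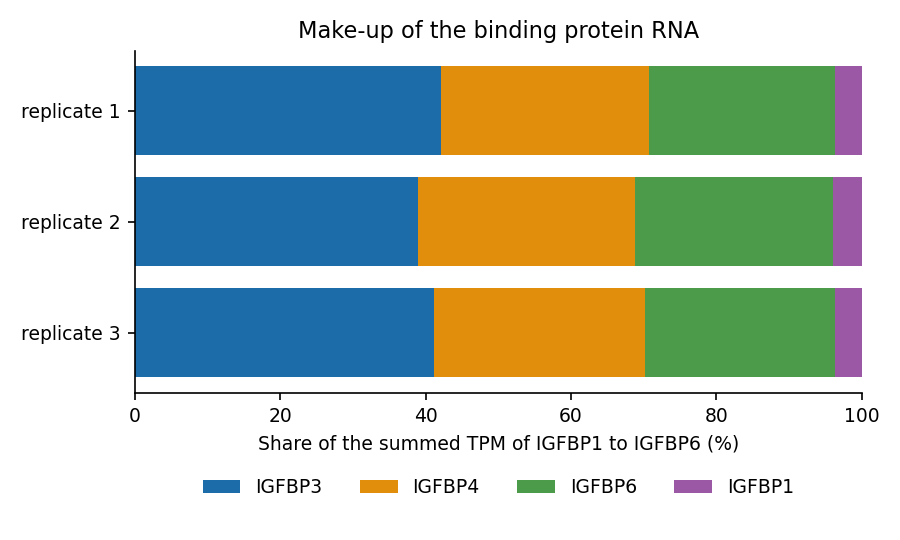
Share of each binding protein in the summed TPM of IGFBP1 to IGFBP6, in percent, with 1 bar per library. IGFBP3 takes 38.9% to 42.0% of each bar, and IGFBP2 and IGFBP5 are too low to be drawn.

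The receptors differed in how firmly their levels could be stated. IGF2R spans 159969099 to 160111504 of chromosome 6 (plus strand). Its level was 39.9, 37.7 and 34.8 TPM in replicates 1, 2 and 3, or 37.5 ± 2.53 TPM (SD, n = 3), above 72.3% of the expressed gene rows. INSR spans 7112255 to 7294414 of chromosome 19 (minus strand). It had 9.12, 8.44 and 7.93 TPM, a mean of 8.50 ± 0.599 TPM (SD, n = 3), above 35.2% of the expressed gene rows. IGF1R spans 98648539 to 98964530 of chromosome 15 (plus strand), and its row is the longest of the 10 at 315992 bp. Its level was 53.9, 44.4 and 40.7 TPM, a mean of 46.3 ± 6.77 TPM (SD, n = 3), above 76.8% of the expressed gene rows. Each receptor was highest in replicate 1 and lowest in replicate 3.

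By TPM, IGF1R stood above IGF2R, and IGF2R above INSR, in every library. IGF1R was above INSR by 2.31 ± 0.11 and above IGF2R by 0.29 ± 0.11 on the log2(TPM + 1) scale (SD, n = 3), and IGF2R was above INSR by 2.02 ± 0.02 (SD, n = 3). All 3 libraries gave the same direction for each pair. The lowest IGF1R value, 40.7 TPM, was only just above the highest IGF2R value, 39.9 TPM. The same exact permutation test gave 0.25 as the p of each of the 3 pairs, before and after Benjamini-Hochberg adjustment.

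The place of IGF1R changed with the measure. Coverage, the mean depth over the bases of a gene, was 46.4, 41.9 and 34.7 for IGF1R in replicates 1, 2 and 3. For INSR it was 56.8, 51.7 and 43.5, and for IGF2R it was 250.0, 231 and 191. By coverage, IGF2R stood above INSR, and INSR above IGF1R, in every library. The difference in log2(coverage + 1) between IGF1R and INSR was -0.30 ± 0.02, and between IGF1R and IGF2R it was -2.42 ± 0.02 (SD, n = 3), both with the sign opposite to that by TPM. IGF2R stayed above INSR, by 2.12 ± 0.01 (SD, n = 3).

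**Figure D3:**
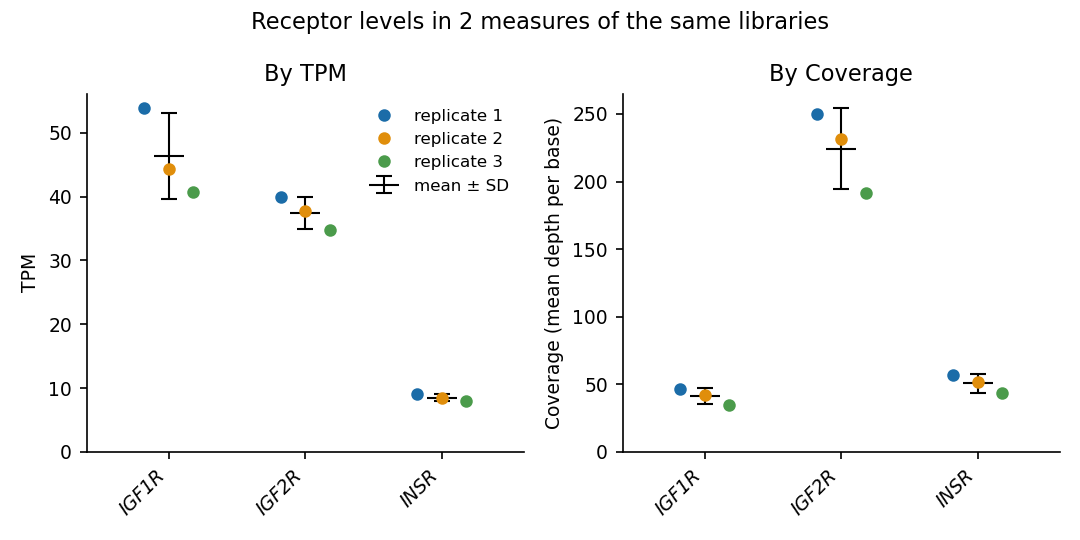
Levels of IGF1R, IGF2R and INSR in replicates 1, 2 and 3 (points) with mean and SD (bars), as TPM on the left and as coverage, the mean depth per base, on the right. IGF1R is highest by TPM and lowest by coverage, where its points lie between 34.7 and 46.4.

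IGF1R was the receptor whose 2 measures differed. In the deposited tables, many genes share 1 highest ratio of coverage to FPKM within a library. IGF2R, INSR, IGFBP1, IGFBP3, IGFBP4 and IGFBP6 were within 1% of this ratio by their median over the libraries, as were 22.4% of the rows with at least 1 FPKM in every library. IGF1R was at 0.138, 0.154 and 0.155 of it in replicates 1, 2 and 3, and 7.90% of those rows were at or below its median. The level that its coverage gives at the highest ratio was 7.41, 6.82 and 6.31 TPM, a mean of 6.85 ± 0.547 TPM (SD, n = 3), below the 8.46 ± 0.578 TPM (SD, n = 3) of INSR by the same calculation. RefSeq lists 9 transcripts for IGF1R, 4 for INSR, 3 for IGFBP3, 2 for IGFBP6 and 1 each for IGF2R, IGFBP1 and IGFBP4. The tables hold 1 value per gene, and the part of the single transcripts in the 2 measures of IGF1R was not tested.

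IGF1R also varied most between libraries among the 7 expressed genes. Its coefficient of variation was 14.6%, above that of 97.3% of the 8419 gene rows with a mean of at least 10 TPM, whose median was 4.88%. For IGF2R, INSR, IGFBP3 and IGFBP1 it was 6.75%, 7.04%, 6.86% and 5.81%. IGFBP4 and IGFBP6, at 3.69% and 3.82%, were steadier than the median row. By the level that its coverage gives, IGF1R had a coefficient of variation of 7.99%. No gene of the 10 had a range of log2(TPM + 1) above 1, which was found in 0.273% of those 8419 rows, and the widest was 0.39 for IGF1R.

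Of the 7 expressed genes, 6 were lowest in replicate 3, and IGFBP3 was lowest in replicate 2. Replicate 3 was also the lowest library for 49.3% of the rows with a mean of at least 10 TPM. Replicate 1 was highest for 5 of the 7 genes, against 62.5% of those rows. Replicate 3 is the library with the lowest ratio of coverage to FPKM. The 49.3% is a smaller share than 6 of 7, and it holds only for rows with a mean of at least 10 TPM, which leave out INSR. The part of depth in these lower values was not tested.

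Over all 10 genes, the order of mean TPM was IGFBP3, IGFBP4, IGFBP6, IGF1R, IGF2R, IGFBP1 and INSR, followed by IGFBP2, IGF1 and IGFBP5. Among the first 7, no neighbours in this order had overlapping ranges over the 3 libraries. By the level that the coverage gives, IGF1R was instead last of these 7, with a mean of 6.85 TPM below the 8.46 TPM of INSR. IGFBP2, IGF1 and IGFBP5 could not be told apart, since they shared the value 0 in replicates 2 and 3. In replicate 1, IGFBP2 had only 0.0283 TPM and the others were at 0. The genes whose levels over the 3 libraries were nearest to those of IGFBP3, by Euclidean distance of log2(TPM + 1), were CTNNB1 at 0.04, NUP188 at 0.04 and DEK at 0.05. With 3 libraries of 1 condition, this nearness is one of level only.

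Some rows overlap the receptor genes. Whether reads from both strands were kept apart is unknown, because the strand setting is not given. IRAIN, an antisense RNA over the start of IGF1R, had 1.13, 1.55 and 1.21 TPM in replicates 1, 2 and 3 and shares 2683 bp with it. LOC729603, on the same strand as IGF2R and within it, had 1.24, 0.949 and 0.909 TPM. AIRN, on the strand opposite to IGF2R and known for silencing the paternal copy of Igf2r in mice, was at 0.0115 ± 0.000827 TPM (SD, n = 3). The rows of INSR and of the 6 binding proteins overlap no other row.

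The sequence before the gene start was compared with these levels, since promoters rich in CpG pairs are common in widely expressed genes. RefSeq promoters were given for 9 of the 10 genes, all but IGFBP1, and CpG pairs were counted in the 250 bases before the start nearest to the 5′ end of the deposited row. Protein-coding genes with at least 1 TPM in all 3 libraries had a median of 21 CpG pairs there (quartiles 15 and 28, 9246 genes). Those listed at 0 in all 3 had a median of 4 (quartiles 2 and 14, 2865 genes). The groups counted are smaller than the 11154 and 3744 protein-coding gene rows that meet these limits, so the medians hold for the genes counted. IGF1R had 48 pairs, IGF2R 33, IGFBP3 32, INSR 28 and IGFBP4 24, all above the first median. IGF1 had 0 pairs, IGFBP2 7 and IGFBP5 8, so IGFBP2 and IGFBP5 were above the second median. IGFBP6 stood apart with 9 pairs and a mean of 90.4 TPM. IGFBP2 has another RefSeq start 592 bases further on, with 22 pairs before it, so its place depends on the start used. The motif TATAAA was found on either strand of these 250 bases in IGFBP4 alone of the 9 genes, and in 5.05% of the expressed and 19.1% of the zero group of protein-coding genes.

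The 30 bases from 40 to 11 before the start are shown for 6 genes, from the one with the most CpG pairs to the one with none, in GRCh38.p14 on the strand of the gene. Capitals mark CpG pairs.
IGF1R (chr15:98648499-98648528, plus strand): gtgtgCGCGggccagggCGCGCGCGCGCGc
IGFBP3 (chr7:45921283-45921312, minus strand): cccCGgcttctatatagCGgcCGgCGCGcc
IGFBP4 (chr17:40443410-40443439, plus strand): ccagggacCGgtataaagtcCGggggagcc
IGFBP6 (chr12:53097627-53097656, plus strand): gcCGgCGgctacttaagacagaggggCGgc
IGFBP5 (chr2:216695560-216695589, minus strand): ggggcCGgctatttaaaagCGcctgctctc
IGF1 (chr12:102481758-102481787, minus strand): aaaaaaaaaaaagaaaaaattcaaggtcca
These stretches hold 8, 5, 2, 3, 2 and 0 CpG pairs, so IGFBP4 at 99.97 TPM and IGFBP5 at 0 had the same number. The start of IGF1 used here lies 92 bases from the end of its deposited row.

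**Figure D4:**
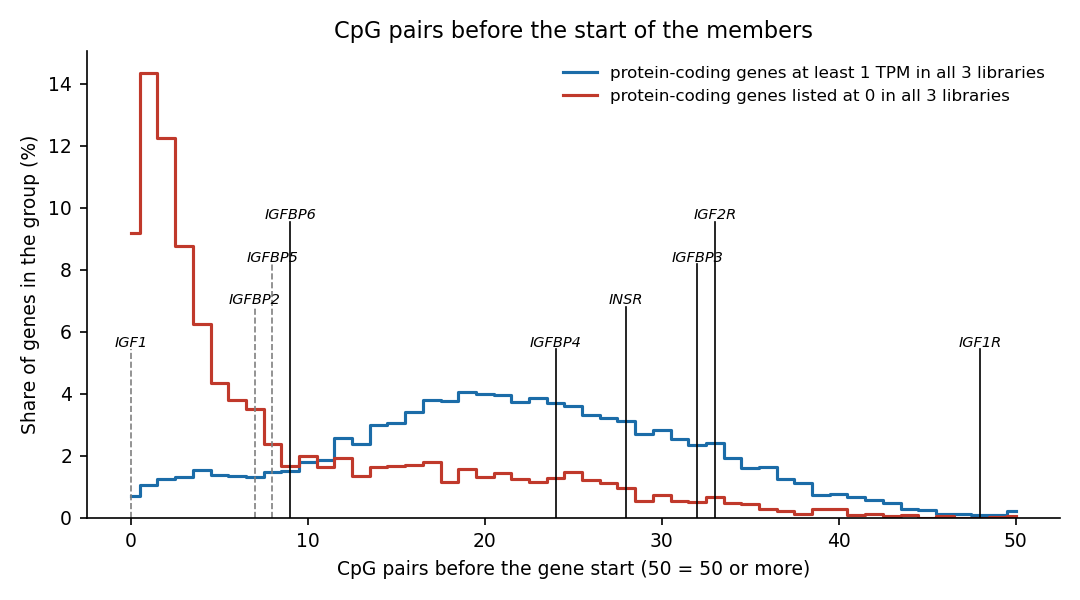
Number of CpG pairs in the 250 bases before the gene start for protein-coding genes with at least 1 TPM in all 3 libraries and for those listed at 0 in all 3, as the share of each group in percent. The groups hold the 9246 and 2865 genes counted. Vertical lines mark 9 of the 10 genes, solid for a mean of at least 1 TPM and dashed below it. Their heights only separate the names, and IGFBP6 is the solid line just to the right of the dashed ones.

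The other genes of the pathway were described from a list of 47 genes ordered by role. Of these, 37 had at least 1 TPM in all 3 libraries and 9 were below 1 TPM in all 3, against 59.5% and 38.9% of protein-coding gene rows. The median of the 47 means was 18.8 TPM. All 14 genes of the PI3K-AKT-mTOR arm and all 9 of the RAS-MAPK arm had at least 1 TPM in every library. By the level that the coverage gives, 33 of the 47 genes had at least 1 TPM in all 3 libraries, with 10 of the 14 in the PI3K-AKT-mTOR arm. The share of protein-coding gene rows by that measure was not computed, so these 2 counts have no background beside them. The highest in each arm were RHEB, the GTPase that activates mTORC1, with 158 ± 2.50 TPM, and MAP2K2, a kinase that activates ERK, with 191 ± 11.4 TPM (SD, n = 3), and by coverage their levels were 121 ± 1.91 and 77.8 ± 4.55 TPM (SD, n = 3). Among negative regulators the highest was PTPN1, a phosphatase that acts on INSR, with 55.0 ± 1.64 TPM (SD, n = 3), and GRB14 was below 1 TPM.

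Of the 7 adaptors, SHC1 was highest by TPM, with 91.2 ± 0.700 TPM against 79.1 ± 1.34 TPM for GRB2 (SD, n = 3). By the level that the coverage gives, GRB2 was highest, with 78.3 ± 1.31 TPM against 70.8 ± 1.00 TPM for SHC1 (SD, n = 3). IRS4 (listed at 0) and GAB1 (0.830 to 0.943 TPM) were below 1 TPM. IRS2, a substrate through which both INSR and IGF1R signal, had 35.6, 31.4 and 28.1 TPM in replicates 1, 2 and 3, and the related IRS1 had 5.09, 4.44 and 4.87 TPM. Among proteases that cleave binding proteins and their inhibitors, HTRA1 was highest, with 25.1 ± 1.80 TPM (SD, n = 3). PAPPA, the protease of IGFBP4, had 3.78 ± 0.251 TPM and its inhibitor STC2 had 18.8 ± 0.651 TPM (SD, n = 3), while PAPPA2 and STC1 were below 0.1 TPM. IGFALS, the third part of the serum complex of IGF and IGFBP3, lay on both sides of the limit, with 0.863, 1.06 and 0.725 TPM. IGFBP7, a related secreted protein with low affinity for IGFs, had 128 ± 3.44 TPM (SD, n = 3), between IGFBP3 and IGFBP4 in mean level, and the related genes INSRR and IGFBPL1 were below 0.1 TPM.

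**Figure D5:**
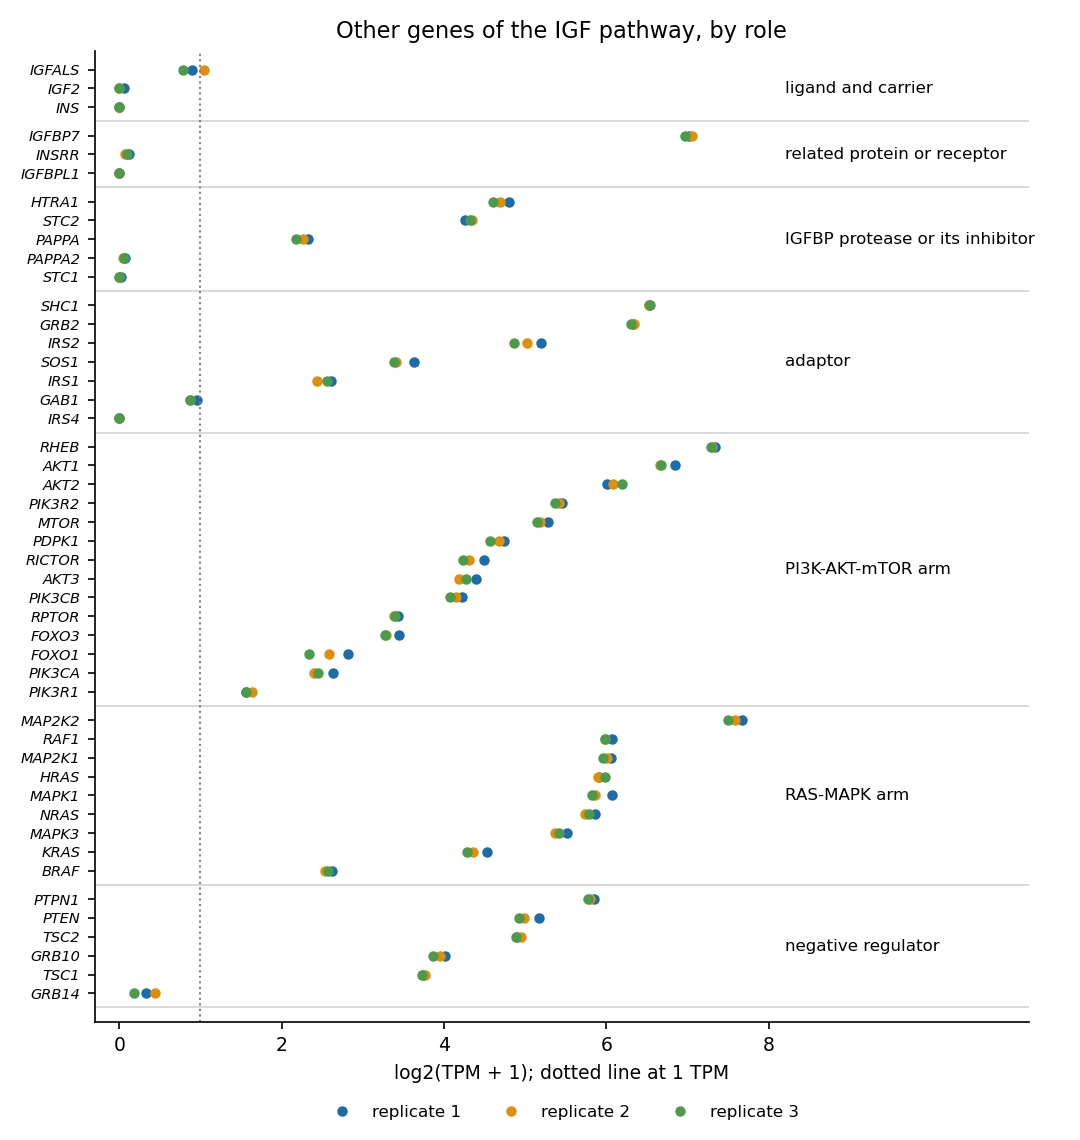
Levels of the 47 other genes of the pathway as log2(TPM + 1) in replicates 1, 2 and 3 (points), grouped by role, with a dotted line at 1 TPM. All genes of the PI3K-AKT-mTOR and RAS-MAPK arms lie to the right of the line, while IGF2 and INS lie at or near 0.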

How the data were processed

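Total RNA of cells labelled as wild-type HepG2 was sequenced in 3 libraries as 150 bp paired-end reads. Per the submitters' processing notes and the study's methods, reads were filtered with FastQC 0.11.8 and Trim Galore 0.6.2 and mapped to GRCh38 with STAR 2.6.1a. The notes also name StringTie, and its version, the annotation and the strand setting are not given in the sources used here. The authors deposited TPM and FPKM values, both scaled for length and library size. The authors also deposited coverage, the mean depth over a gene, without scaling for library size. Replicates were not pooled.

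The 3 tables shared 43389 rows with the same gene, strand and coordinates, and the 39320 of them on the assembled chromosomes and the mitochondrial genome were used. TPM was used as deposited. Genes were compared within a library by log2(TPM + 1), with an exact two-sided permutation test that flips the signs of the 3 differences, and p-values were adjusted by Benjamini-Hochberg. Biotypes, transcript numbers and promoters came from RefSeq (GRCh38.p14), whose symbols matched 35017 rows. The depth is unknown, so precision is given as the SD over libraries. The members and gene lists were chosen with earlier results of these data known. The genes named were the 10 members, the highest gene of each role and those below 1 TPM on the pathway list, the 3 genes nearest to the highest member and overlapping rows that reached 1 TPM. AIRN, GRB2, IRS1, IRS2, PAPPA, STC2 and the marker genes named were added after their values were seen. The range function was tested on simulated data, and the percentile and permutation functions were tested on fixed values. Python 3.11.15, numpy 2.4.6, pandas 2.3.3 and matplotlib 3.10.9 were used.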

Additional observations from a re-analysis of the deposited data

How the results depend on the processing

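The alternatives were leaving out each replicate, a pseudocount of 0.1, FPKM or coverage in place of TPM, 3 other scalings and other limits on low values. The level that the coverage gives, and the counts of genes at 0 or below 1 TPM without 1 library, were added after the data had been seen. The log2 difference between IGF1R and INSR, 2.31 by TPM, reversed to -0.30 by coverage and to -0.27 by the level that the coverage gives. That between IGF1R and IGF2R, 0.29 by TPM, reversed to -2.42 and to -2.29. The cause was not tested. The other differences between receptors or binding proteins kept their direction with each replicate left out, with the other pseudocount and by FPKM and coverage. With all 3 libraries the exact permutation test gave p = 0.25 under each of these. It gives this value whenever the 3 signs agree, also for the reversed differences, so it cannot show whether a result depends on the processing. The 3 scalings were run for the levels only.

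The summed level of the 10 genes was 435 TPM. It was 544 TPM without mitochondrially encoded genes, 523 TPM with TRNC, a mitochondrial tRNA gene, at the FPKM that its coverage gives, 395 TPM by the level that the coverage gives, 207 in FPKM and 2359.9 in coverage. The first 2 raise all members by nearly 1 factor, and the last 2 are other units. With the first 2, the mean of INSR rose from 8.50 TPM to 10.6 and 10.2 TPM, above the limit of 10 TPM. With each replicate left out, it ranged from 422 to 446 TPM. The median percentile of the 7 expressed genes by TPM, 76.8, is that of IGF1R, the gene whose place changed with the measure. It was 82.9 when genes down to a mean of 0.1 TPM were included and 91.9 with no filter. Leaving out each replicate gave 75.4 to 77.7, the lowest without replicate 1. The numbers of members (7) and pathway genes (37) with at least 1 TPM did not move when 1 library was left out. Members listed at 0 numbered 3 without replicate 1, where IGFBP2 joined them, against 2. Pathway genes below 1 TPM numbered 10 without replicate 2, where IGFALS joined them, against 9. No paired analysis was possible because only 1 condition was sequenced. The depth is unknown, which limits what a value of 0 shows.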

Other observations

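The IGF-like (IGFL) genes, a family of small secreted proteins on chromosome 19, were looked at after their values had been seen. IGFL2 had 11.4, 11.5 and 12.5 TPM in replicates 1, 2 and 3, a mean of 11.8 ± 0.611 TPM (SD, n = 3). IGFL1, IGFL3 and IGFL4 were below 1 TPM in all 3 libraries. IGFLR1, a receptor of this family, had 2.88 ± 0.0540 TPM (SD, n = 3). The antisense row IGFL2-AS1 had 24.5 ± 0.361 TPM (SD, n = 3). Whether its reads were kept apart from those of IGFL2 is unknown, because the strand setting is not given. As for IGF1R, the ratio of coverage to FPKM of IGFL2 was low, with a median over the libraries of 0.145 of the highest ratio.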
